A study of Mus musculus with 6 samples.

Results

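The glucocorticoid receptor gene Nr3c1, the gene Hsd11b1 that sets how much active hormone a cell holds, and 6 genes that the receptor is known to raise, namely Fkbp5, Tsc22d3, Dusp1, Zfp36, Sgk1 and Klf9, were followed in synovial fibroblasts (SFs) treated with amisulpride. The 8 genes were chosen by name, and each matched a single row of the 49548 genes in the deposited table. The SFs, connective tissue cells of the joint lining, came from the ankle joints of mice with a human TNF transgene (hTNFtg), which drives chronic polyarthritis. The mice were 8-week-old CBA C57BL/6J animals, and CD45+ cells were depleted from the cultures at passage 1. All 6 libraries carried the hTNFtg genotype, and 3 came from SFs with no treatment and 3 from SFs given 500 μM amisulpride, a drug for psychosis that acts on dopamine receptors, for 48 hours. The methods speak of vehicle where the labels give no treatment, so the controls are called untreated, and no label names an added steroid. The labels number the libraries of each group from 1 to 3 and the methods call them biological replicates, without saying which mice each came from.

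Glucocorticoids cross the cell membrane and bind a receptor held in the cytosol by heat shock protein chaperones. The loaded receptor enters the nucleus, where it binds DNA as a dimer and raises some genes, and where it also restrains the factors NF-κB and AP-1 that drive chemokines and metalloproteinases. In the joint this is the pathway by which steroid drugs quiet inflamed synovium. Whether steroid-type, anti-inflammatory targets were higher after amisulpride was the question put to the 8 genes.

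Values are normalised counts, that is, whole-number values the authors obtained by dividing each gene's reads by the scaling factor of its library. The depth of 5 libraries could be read from the spacing of low values, and lay between 2.52 and 4.71 M reads, with amisulpride replicate 3 the shallowest. A count of 0 in these libraries allows up to 3 reads, or 2.5 to 5.37 normalised counts, which covers counting error only. Amisulpride replicate 3 stood apart on the first principal component (73.9 against -38.2 to 10.4 in the other 5 libraries), so some results are also given without it. The 12 fibroblast markers were all tested, and Col1a1, Col1a2, Pdgfra, Thy1, Pdpn and Vim were abundant in each library. After treatment 7 of the 12 were higher and 5 lower, and 0 passed the study's thresholds. Lum was at -1.07 and Col1a2 and Col3a1 at 0.71 on the log2 scale. The groups did not overlap for Prg4 only, with 915, 859 and 733 untreated and 426, 304 and 653 treated. Myeloid markers were present as well. All 12 were tested, and 2 of them (Cd14 and Csf1r) were lower past the study's thresholds and 0 higher. Over all genes 3.01% were lower and 2.69% higher past them. By sign 5 of the 12 were higher and 7 lower, and the groups did not overlap for C1qb (higher) and Cd14 (lower). The sum of the 12, most of it Lyz2, was 2442 to 4248 normalised counts in untreated and 2318 to 4232 in treated libraries. Ptprc, which encodes CD45, stood at 38, 12 and 18 in untreated and 23, 5 and 5 in treated libraries. The endothelial genes Cdh5 and Cldn5, the adipocyte genes Adipoq, Cidec and Lep, the muscle genes Myh1 and Myh4 and the cartilage genes Matn1 and Col9a1 were at 0 in all 6 libraries. Other members of the last lists were present. The cartilage-linked genes Comp (303 to 1051) and Sox9 (233 to 557) were in each library, and the summed chondrocyte list was 589 to 1261 untreated and 815 to 1612 treated. Of the muscle genes Acta1 ran from 8 to 44 and Tnni2 from 0 to 35, and that list summed to 16 to 60 untreated and 17 to 46 treated. The summed adipocyte list was 308 to 328 untreated and 134 to 252 treated, nearly all of it Fabp4. The part of these other cell types in the results below was not tested.

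The promoters of the genes are shown for the members on whose upstream sequence a receptor or signal-response motif lay. RefSeq windows (build GRCm38.p6, the assembly behind mm10) of 250 bases before each annotated start were found for 7 of the 8 genes, 14 windows in all, and 4 motifs were searched on both strands. The palindromic glucocorticoid response element, AGAACA followed after 3 bases of any kind by its reverse complement TGTTCT, was found in 3 of 32851 windows over all genes (0.00913%), and 1 of these 3 belonged to Sgk1. AGAACA, a single arm of that element and contained in it, was found in 16.1% of all windows, and here in windows of Sgk1 and Tsc22d3. The cAMP response element TGACGTCA was found in 1.55% of windows and here in Dusp1. The AP-1 site TGACTCA, in 4.46% of all windows, was found in 0 of the 14. The stretches with these motifs follow 5′ to 3′ without bases that the GENCODE annotation places in a UTR: 250 bases of Sgk1 (chr10:21993640-21993889, plus strand), 203 bases of Dusp1 (chr17:26508520-26508722, minus strand) and 113 bases of Tsc22d3 (chrX:140600660-140600772, minus strand). Capitals mark the palindromic element in Sgk1, the cAMP response element in Dusp1 and TGTTCT, the reverse complement of AGAACA, in Tsc22d3. A further TGTTCT in the Sgk1 stretch, 242 bases before the start, is left in lower case, and the other Sgk1 windows with AGAACA are not shown.
Sgk1: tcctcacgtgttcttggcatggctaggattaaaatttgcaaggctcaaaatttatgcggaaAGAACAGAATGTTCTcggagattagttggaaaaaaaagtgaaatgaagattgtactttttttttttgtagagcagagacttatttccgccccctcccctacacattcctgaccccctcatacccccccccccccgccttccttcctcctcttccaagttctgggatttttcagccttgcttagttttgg
Dusp1: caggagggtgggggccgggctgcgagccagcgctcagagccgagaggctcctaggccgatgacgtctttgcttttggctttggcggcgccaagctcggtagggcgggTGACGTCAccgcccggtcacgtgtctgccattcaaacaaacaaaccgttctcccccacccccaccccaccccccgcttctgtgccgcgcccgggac
Tsc22d3: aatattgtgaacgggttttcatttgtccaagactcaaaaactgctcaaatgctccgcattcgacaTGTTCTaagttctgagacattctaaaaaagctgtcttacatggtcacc
The Sgk1 element begins 189 bases before the start of 1 of the 6 annotated windows of that gene, and the Dusp1 element 143 bases before its start. A match is a description of the letters, and the values below are per gene and do not separate transcripts with different starts.

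The receptor's target genes did not all move one way after amisulpride. Of the 8 genes 3 were higher and 5 lower in treated SFs, with a median log2 fold change of -0.35, against 50.1% higher and 49.9% lower and a median of 0.002 over the 12614 genes tested. Of the 6 target genes 2 were higher, Tsc22d3 and Zfp36. With limma, 0 of the 8 had an adjusted p under 0.05 (0.0951% of all genes, or 12, were called higher and 0.190%, or 24, lower), and 0 passed the study's thresholds, a log2 fold change of 1 or more in either direction and an unadjusted p under 0.05 (2.69% higher and 3.01% lower). An unadjusted limma p under 0.05 was found for 1 gene that was higher, Tsc22d3, and 1 that was lower, Sgk1, against 5.11% and 5.77% of all genes. The treated and untreated values did not overlap for Tsc22d3 on the higher side (7.80% of all genes) and for Sgk1 and Fkbp5 on the lower side (8.66%). With the replicate number as a block 130 genes were higher and 133 lower at an adjusted p under 0.05, and again 0 of the 8. With 8 genes these counts are too small to set the genes apart from the rest. In such cultures fewer cells of a type and less RNA per cell cannot be told apart.

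**Figure D1:**
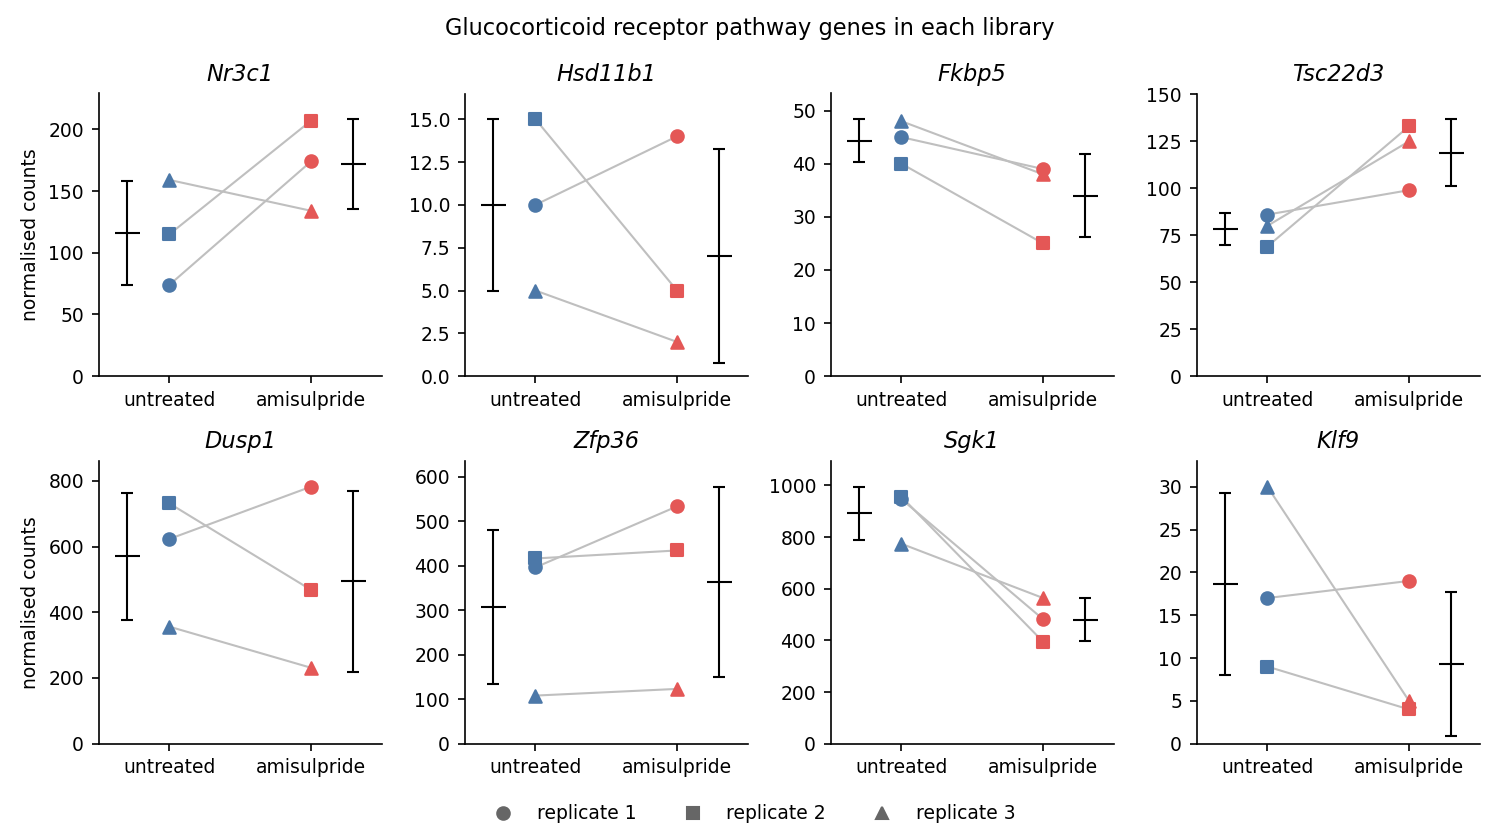
Normalised counts of the 8 genes in each library. Each panel is 1 gene, the left points are untreated and the right points amisulpride-treated SFs, marker shapes give the replicate number, grey lines join libraries with the same number, and the bars at the sides give the mean ± SD of 3 libraries. The groups separate for Sgk1, Fkbp5 and Tsc22d3, and replicate 3 is the lowest in both groups for Dusp1 and Zfp36.

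Nr3c1 (ENSMUSG00000024431, mm10 chromosome 18, 39410545 to 39491301, minus strand) encodes the receptor itself. It had 74, 115 and 159 normalised counts in untreated replicates 1 to 3 and 174, 207 and 134 in the treated ones. The groups overlapped, because the untreated library with the most Nr3c1, replicate 3, lay above the lowest treated library, which was also replicate 3. The means were 116 ± 42.5 and 171.7 ± 36.6 (SD, n = 3), and the log2 fold change was 0.61 ± 0.32 (SE) with a 95% interval of -0.10 to 1.31. The limma p was 0.0848 and the adjusted p 0.530. Between libraries of the same number the log2 difference was 1.22, 0.84 and -0.25. Leaving out untreated replicate 3 gave a log2 fold change of 0.87 with a limma p of 0.0310, and leaving out amisulpride replicate 3 gave 0.77 with 0.0338, whereas leaving out untreated replicate 1 gave 0.32 with 0.322. The adjusted p lay between 0.337 and 0.844 with any library left out. The interval holds both no change and a doubling of the receptor transcript.

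Among 4992 protein-coding genes with a mean of at least 100, those whose log2 values over the 6 libraries, centred on their mean, lay closest to Nr3c1 were Wasf2, Acer3 and Cnppd1. Their root mean square difference from Nr3c1 was 0.11, 0.12 and 0.15 log2 units. Acer3, an alkaline ceramidase, ran from 72 to 128 in untreated and from 120 to 177 in treated libraries. Wasf2, an activator of actin branching, ran from 135 to 261 and from 199 to 308. With 6 libraries such closeness is a description of these values only.

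Hsd11b1 (ENSMUSG00000016194, chromosome 1, 193221634 to 193264075, minus strand) encodes the reductase that turns inert hormone back into active glucocorticoid inside the cell. It was scarce, at 10, 15 and 5 normalised counts untreated and 14, 5 and 2 treated. The value of 2 in amisulpride replicate 3 lay under the 5.37 that 3 reads are worth there, and the groups overlapped. The log2 fold change of -0.66 ± 0.74 (SE) had a 95% interval of -2.28 to 0.97 and a limma adjusted p of 0.786. Hsd11b1 met the minimum of 10 in exactly 3 libraries and was not tested in 3 of the 6 comparisons that left out a library. Its neighbour on the opposite strand, Lamb3, which overlaps it, had at most 7 normalised counts.

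Of a list of 18 genes for making, activating, exporting or inactivating steroids, Hsd11b1 among them, 6 were tested and 4 were at 0 in every library. Of those tested 0 passed the study's thresholds in either direction (median log2 fold change -0.004), against 2.69% higher and 3.01% lower over all genes. H6pd, which supplies the reducing power that Hsd11b1 needs, had 75, 69 and 92 normalised counts untreated and 106, 110 and 77 treated, a log2 fold change of 0.30 ± 0.28 (SE). Por, the electron donor of cytochrome P450 enzymes, had 224, 157 and 193 untreated and 184, 122 and 63 treated, or -0.75 ± 0.37 (SE) on the log2 scale (limma adjusted p 0.497). Without amisulpride replicate 1 Por was at -1.10 and passed the thresholds, the only gene of the list to do so with a library left out. Hsd11b2, which inactivates the hormone, had 0 in 5 libraries and 1 in amisulpride replicate 1, and the steroid-making genes Cyp11b1, Cyp17a1, Cyp21a1 and Hsd3b1 were at 0 in all 6.

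Fkbp5 (ENSMUSG00000024222, chromosome 17, 28399095 to 28517524, minus strand) encodes a co-chaperone that lowers the receptor's affinity for hormone and is itself raised by the receptor, as a feedback. It had 45, 40 and 48 normalised counts untreated and 39, 25 and 38 treated. Every treated library lay below every untreated one, by 1 normalised count at the closest, and the same held within each replicate number. The means were 44.3 ± 4.04 and 34 ± 7.81 (SD, n = 3). The log2 fold change of -0.40 ± 0.33 (SE) had a 95% interval of -1.12 to 0.32 and a limma adjusted p of 0.709, so the separation of the groups was not larger than the spread that the fit assigns to genes of this level. A rise above 0.32 on the log2 scale lies outside that interval.

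Of 25 listed chaperones and cofactors of the receptor 24 were tested and 0 passed the study's thresholds. The median log2 fold change was -0.14, with 9 higher and 15 lower. Over all genes 2.69% passed as higher and 3.01% as lower, 50.1% were higher and 49.9% lower by sign, and the median was 0.002. The lowest p-values were those of Ppid, a co-chaperone of the same class as Fkbp5 (199, 125 and 152 untreated, 133, 94 and 95 treated, log2 fold change -0.55 ± 0.28, adjusted p 0.516 in limma), and of Stub1, a chaperone-bound ubiquitin ligase (log2 fold change -0.46 ± 0.26, adjusted p 0.571 in limma). The microRNA gene Mir3082 lies inside Stub1 on the same strand, so their reads cannot be told apart. The mineralocorticoid receptor gene Nr3c2, which also binds glucocorticoids, had no reads without drug and 1, 3 and 4 normalised counts after it, all under the value of 3 reads, and was not tested.

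Tsc22d3 (ENSMUSG00000031431, chromosome X, 140539528 to 140600659, minus strand) encodes the leucine zipper protein GILZ, which binds and restrains NF-κB and AP-1. It had 86, 69 and 80 normalised counts untreated and 99, 133 and 125 treated. Every treated library lay above every untreated one, and each treated library lay above the untreated one of its number, by 0.20, 0.94 and 0.64 on the log2 scale. The means were 78.3 ± 8.62 and 119 ± 17.8 (SD, n = 3). Treated SFs were higher by 0.59 ± 0.27 (SE) on the log2 scale, with a 95% interval of 0.01 to 1.17, a limma p of 0.0469 and an adjusted p of 0.453. With the replicate number as a block the limma p was 0.0557, and with quantile normalisation it was 0.0540. Over fits with a library left out, the log2 fold change ran from 0.50 to 0.72 and the limma p from 0.0359 to 0.140. Its relatives Tsc22d1 and Tsc22d4 were also higher in every treated library. Tsc22d1, a family member linked to TGF-β signalling, had 611, 1107 and 567 untreated and 1167, 1609 and 1562 treated, or 0.98 ± 0.30 (SE) on the log2 scale (limma adjusted p 0.229). It passed the study's thresholds without untreated replicate 2 (1.28) and without amisulpride replicate 1 (1.12). Tsc22d4 had 445, 440 and 456 untreated and 577, 681 and 587 treated (log2 fold change 0.46, limma adjusted p 0.497), and Tsc22d2 was at -0.01. Tsc22d4 and Tsc22d2 were named after their values were seen.

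**Figure D2:**
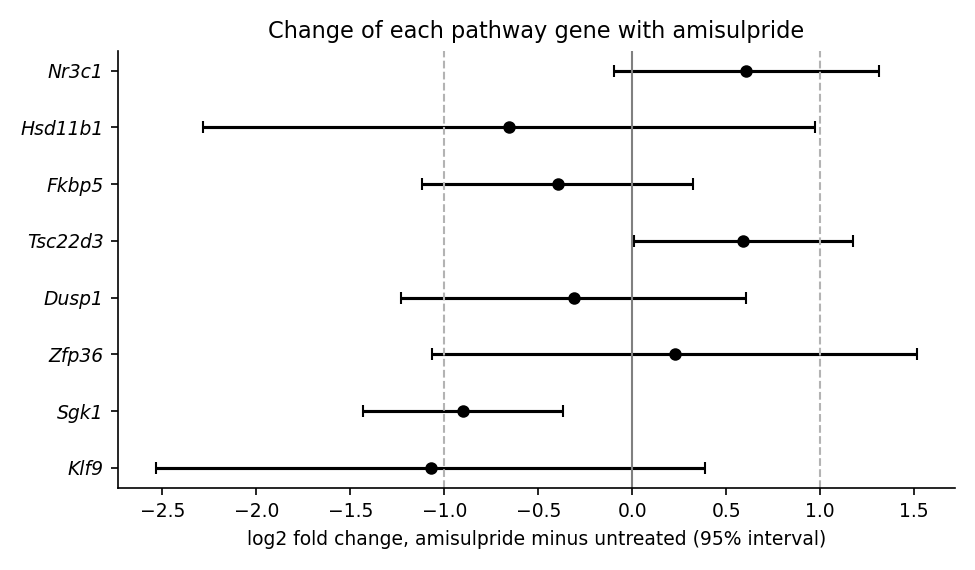
Log2 fold change of each of the 8 genes, treated minus untreated, on the log2(normalised count + 1) scale. Points are limma estimates, bars 95% intervals, and dashed lines mark -1 and 1. Only the intervals of Tsc22d3 and Sgk1 leave out 0, and that of Sgk1 runs from -1.43 to -0.37.

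Dusp1 (ENSMUSG00000024190, chromosome 17, 26505590 to 26508519, minus strand) encodes a phosphatase that switches off MAP kinases and is a main anti-inflammatory target of steroids. It had 623, 731 and 356 normalised counts untreated and 782, 468 and 231 treated. The highest and the lowest of the 6 values were both in treated libraries. The means were 570.0 ± 193 and 493.7 ± 276 (SD, n = 3). On the log2 scale the change was -0.31 ± 0.42 (SE), with a 95% interval of -1.23 to 0.60 and a limma adjusted p of 0.827, and it was 0.15 without amisulpride replicate 3.

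Zfp36 (ENSMUSG00000044786, chromosome 7, 28376784 to 28380253, minus strand) encodes tristetraprolin, which binds AU-rich messages such as that of Tnf and speeds their decay. It had 396, 416 and 108 normalised counts untreated and 533, 434 and 123 treated. Each treated library was higher than the untreated one of its number, by 0.43, 0.06 and 0.19 on the log2 scale, while the highest value within a group exceeded the lowest by 3.85-fold untreated and 4.33-fold treated. The change was 0.22 ± 0.59 (SE) on the log2 scale, with a 95% interval of -1.06 to 1.51 and a limma adjusted p of 0.916. With the replicate number as a block the limma p was 0.385. The log2 fold change was 0.88 without amisulpride replicate 3 and -0.41 without untreated replicate 3, so its sign depended on the library left out. Each of these fits kept the low replicate 3 library of the other group. The relatives of Zfp36 did not pass either. Zfp36l1 was at 0.13 and Zfp36l2 at -0.50 on the log2 scale, the latter with every treated library (592 to 671) below every untreated one (757 to 1139) and a limma adjusted p of 0.498. Zfp36l1 and Zfp36l2 were named after their values were seen.

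Dusp1 and Zfp36 were low in the same replicate number with and without the drug. In replicate 3 of both groups Dusp1, Zfp36 and Hsd11b1 had their lowest value, a pattern that 13.4% of all genes showed. Of 17 tested immediate early genes, which serum, growth factors and stress switch on, 8 showed it too, namely Btg2, Egr1, Egr2, Fos, Ier2, Ier3, Junb and Myc. Egr1 had 1552, 1815 and 783 normalised counts untreated and 1968, 1701 and 592 treated, and Junb 2767, 3367 and 1952 and 3450, 2154 and 1063. This pattern was looked for after the values were seen, and whether it reflects the cultures or their handling was not tested. At the study's thresholds 2 of the 17 genes were higher and 0 lower, against 2.69% and 3.01% of all genes. Atf3, a stress-response factor, rose from 7, 8 and 16 to 32, 32 and 27 (log2 fold change 1.55 ± 0.45, adjusted p 0.208 in limma). It reached the minimum of 10 in all treated but not all untreated libraries, so it could be tested only because it was high with the drug. Ctgf, a matricellular growth factor, rose from 11976, 9403 and 10616 to 15297, 19468 and 40012, a log2 fold change of 1.11 that was 0.70 without amisulpride replicate 3 and then no longer passed. The median over the 17 was 0.25, and -0.09 without untreated replicate 3.

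**Figure D3:**
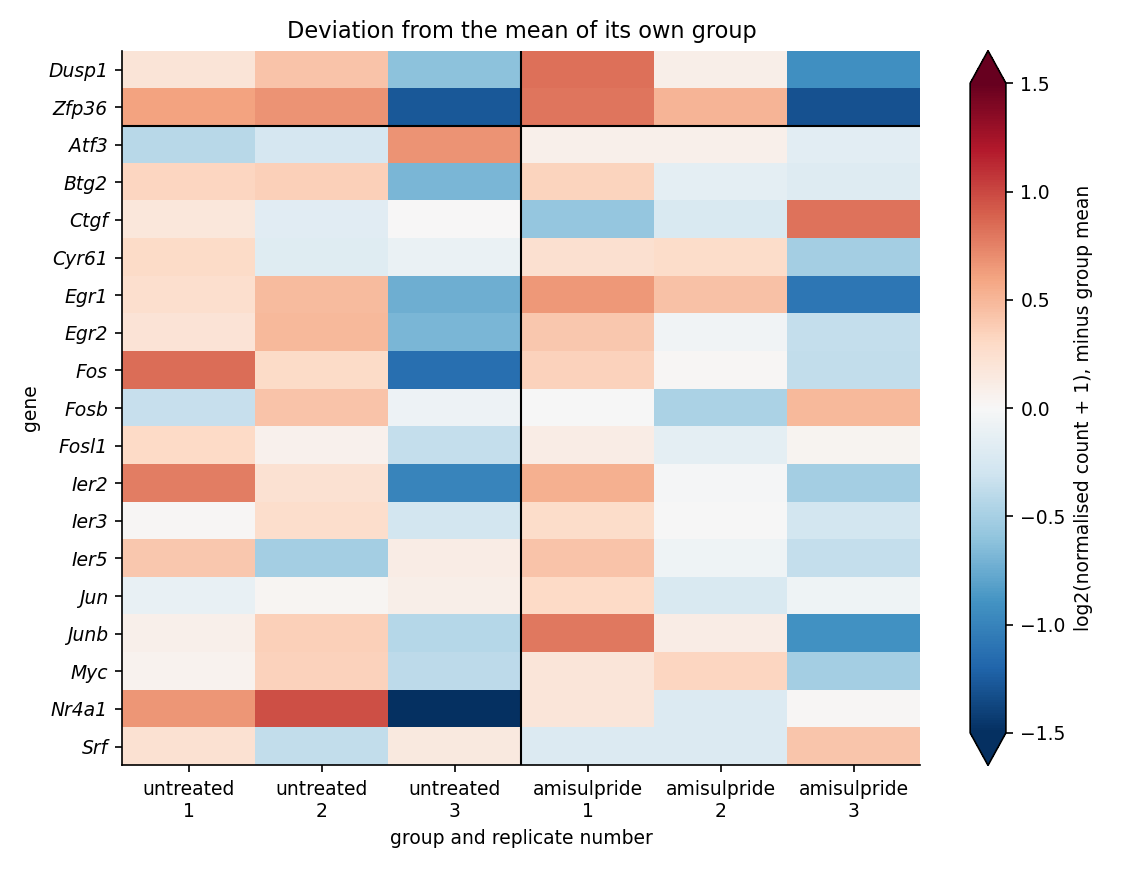
Deviation of Dusp1, Zfp36 and 17 immediate early genes from the mean of their own group in each library. Rows are genes, columns are libraries by group and replicate number, and colour gives log2(normalised count + 1) minus the group mean, from blue for low to red for high. Replicate 3 is blue in both groups for Dusp1, Zfp36 and for Egr1, Fos, Ier2 and Junb among others.

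Sgk1 (ENSMUSG00000019970, chromosome 10, 21882184 to 21999903, plus strand), named for its response to serum and glucocorticoids, encodes a kinase of ion transport and cell survival. It had 947, 956 and 774 normalised counts untreated and 482, 395 and 564 treated. Every treated library lay well below the lowest untreated one, and the treated mean was 0.538 of the untreated mean (892.3 ± 103 against 480.3 ± 84.5, SD, n = 3). The log2 fold change was -0.90 ± 0.24 (SE), with a 95% interval of -1.43 to -0.37, a limma p of 0.00324 and an adjusted p of 0.172. Within replicate numbers the log2 difference was -0.97, -1.27 and -0.46. With the replicate number as a block the adjusted p was 0.0827, and with weights per library it was 0.0532. Without amisulpride replicate 3 Sgk1 was at -1.02 and passed the study's thresholds, with an adjusted p of 0.0702 in limma. The range with any library left out was -1.02 to -0.77. Among the 8 genes Sgk1 had the lowest p-value. Its relative Sgk3 was at -0.68 on the log2 scale, and Sgk2 was at 0 in all 6 libraries. Sgk2 and Sgk3 were named after their values were seen.

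Klf9 (ENSMUSG00000033863, chromosome 19, 23141226 to 23166911, plus strand) encodes a zinc finger repressor that responds to steroid and thyroid hormone. It had 17, 9 and 30 normalised counts untreated and 19, 4 and 5 treated. The treated values of 4 and 5 were at or under the value of 3 reads in their libraries, and the groups overlapped. The log2 fold change of -1.07 ± 0.67 (SE) was the lowest of the 8, but its 95% interval ran from -2.53 to 0.39 and the limma adjusted p was 0.601. Klf9 met the minimum of 10 in exactly 3 libraries. Among its relatives Klf2, a factor known for restraining NF-κB, had 176, 89 and 134 untreated and 270, 253 and 236 treated. Klf2 was higher in every treated library, with a log2 fold change of 0.97 ± 0.29 (SE) and a limma adjusted p of 0.211. It passed the study's thresholds without untreated replicate 1 (1.20), untreated replicate 3 (1.01) or amisulpride replicate 3 (1.02). Of 18 tested paralogs of the 8 genes, 0 passed the thresholds in the full comparison, against 2.69% higher and 3.01% lower over all genes. The count was 1 higher without any library other than amisulpride replicate 2, and 1 lower without untreated replicate 2 or amisulpride replicate 3.

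A wider list of 28 genes described as raised by glucocorticoids moved in both directions. Of these 21 were tested, 3 passed the study's thresholds as higher and 1 as lower (2.69% and 3.01% of all genes), and the median log2 fold change was 0.07. The 3 were Mt1 and Mt2, metallothioneins that bind zinc and also answer to metals, and Arrdc2, an arrestin-like adaptor. Mt1 rose from 2750, 4507 and 2087 to 5276, 6961 and 9455 (log2 fold change 1.25 ± 0.34, adjusted p 0.180 in limma). Mt2 rose from 3023, 8865 and 3609 to 7976, 14394 and 26484 (log2 fold change 1.66 ± 0.49, adjusted p 0.209 in limma), with groups that overlapped. Both were highest in amisulpride replicate 3. The log2 fold change ran from 0.997 to 1.55 for Mt1 and from 1.22 to 2.13 for Mt2 with a library left out. With the replicate number as a block Mt2 had a limma adjusted p of 0.0248. Arrdc2 rose from 6, 4 and 4 to 19, 16 and 21, and reached the minimum of 10 in treated libraries only, so it could be tested only because it was high there. Crispld2, a secreted glycoprotein, fell from 102, 206 and 203 to 71, 68 and 64 (log2 fold change -1.25 ± 0.32, adjusted p 0.140 in limma, and 0.0392 with the block). Crispld2 overlaps Gm20388 on the same strand, so its reads may be mixed. The number higher was 2 without untreated replicate 3, where Mt1 was at 0.997, and 2 without amisulpride replicate 3, where Arrdc2 was not tested. The number lower was 2 without untreated replicate 3, amisulpride replicate 1 or amisulpride replicate 3. Over the 21 tested genes 13 were higher and 8 lower (50.1% and 49.9% of all genes). The groups did not overlap for 4 on the higher and 2 on the lower side (7.80% and 8.66% of all genes). With 21 genes these counts are too small to set the list apart from the rest.

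Inflammatory genes that steroids lower were mostly lower in treated SFs. Of 24 listed chemokines, cytokines, adhesion molecules, metalloproteinases and enzymes, 19 were tested, 10 passed the study's thresholds as lower and 0 as higher, and the median log2 fold change was -1.12. Over all genes 3.01% passed as lower and 2.69% as higher. Among the 10, Cxcl2, Il11 and Tnf reached the minimum of 10 in all untreated but not all treated libraries. They could be tested only because they were high without the drug. The count was 6 with a mean of at least 50, a drop not wholly due to these genes. Some of these genes were named by the study and by earlier work on these libraries, so the count is not independent evidence of its direction. The genes with the lowest p-values were Ccl20, Ptgs2, Mmp3 and Cxcl2. Ccl20, a chemokine for dendritic cells and lymphocytes, fell from 2258, 3232 and 1656 to 564, 464 and 562 (log2 fold change -2.12 ± 0.28). It was the one gene of the list with an adjusted p under 0.05 in limma without a block (0.0130). Ptgs2, which makes prostaglandins and whose message tristetraprolin binds, fell from 719, 411 and 434 to 197, 78 and 191 (adjusted p 0.0761 in limma). Mmp3, a matrix-degrading metalloproteinase, fell from 4166, 5120 and 2530 to 666, 1118 and 1745 (adjusted p 0.0764 in limma). Cxcl2, a neutrophil chemokine, fell from 24, 68 and 44 to 8, 19 and 7 (log2 fold change -1.92 ± 0.51, adjusted p 0.167 in limma). With the replicate number as a block 6 genes of the list were lower at an adjusted p under 0.05, namely Ccl20 (0.000818), Ptgs2 (0.00209), Mmp3 (0.00910), Cxcl2 (0.0257), Mmp13 and Mmp9. In contrast Icam1 (0.45), Vcam1 (0.18), Lif (0.15) and Cxcl10 (0.25) had positive log2 fold changes that did not pass, and were named after their values were seen. The count was 6 without untreated replicate 2, and 7 with a median of -0.75 without amisulpride replicate 3. Of the 12 myeloid markers 7 were lower and 5 higher. Cd14 and Csf1r were lower past the thresholds, while C1qb (0.75, groups not overlapping) and Adgre1 (0.83) had positive log2 fold changes that did not pass. The summed myeloid markers, most of them Lyz2, overlapped between the groups.

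**Figure D4:**
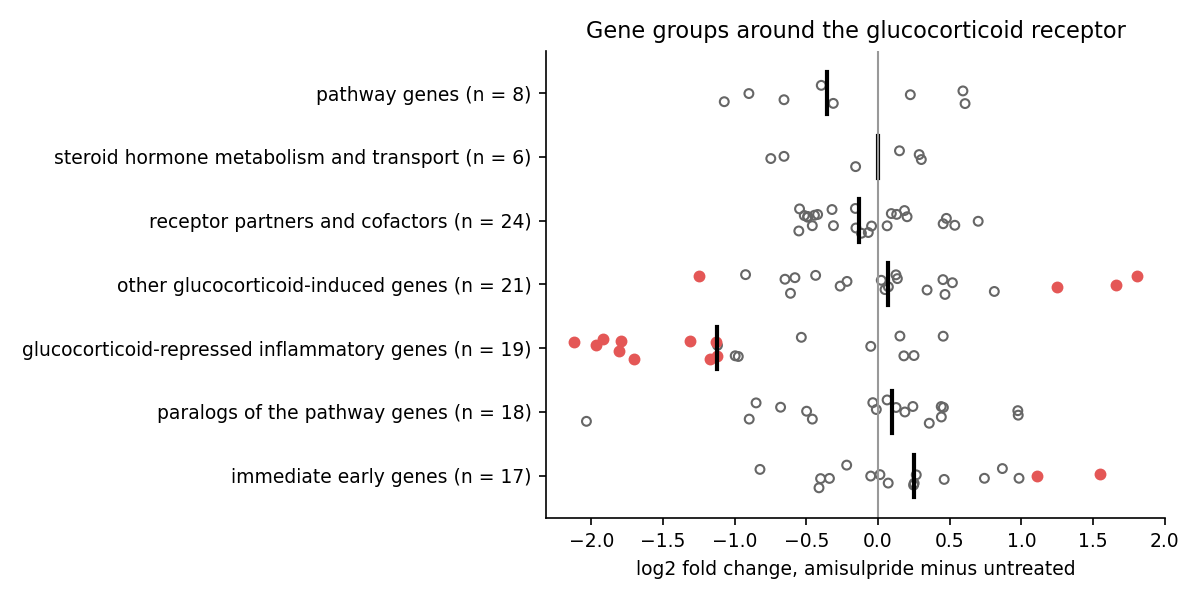
Log2 fold change, treated minus untreated, of the 8 genes and of each tested gene in the 6 groups around them. Each point is a gene, filled where it passed the study's thresholds, bars are medians, and vertical jitter only separates points. The inflammatory group has 10 filled points, all below 0, while the glucocorticoid-induced group has 3 above and 1 below.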

How the data were processed

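RNA from 3 untreated and 3 amisulpride-treated cultures was sequenced by a 3′ end method (QuantSeq, Ion Proton). The authors mapped reads to mm10 with TopHat2 and then Bowtie2, counted reads per gene with GenomicRanges, and normalised and tested them with DESeq through metaseqr. Tool versions and the strand setting of the counting were not given in the sources used here. The deposited values are a score: the authors scaled the reads of each library by a single factor and rounded the result. The deposited table also holds the authors' own fold changes and p-values, which were not used, and 12 further per-library columns, which were not used.

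Values were compared as log2(normalised count + 1), so changes of low genes are understated, with limma 3.58.1 in R 4.3.3 (trended empirical Bayes, two-sided, Benjamini-Hochberg over the 12614 genes that reached 10 in 3 or more libraries). An exact permutation test of 3 against 3 libraries cannot go below 0.1 and was not used. The limma fit and the estimate of the value of 1 read were tested on simulated data. For the fit the simulated libraries were independent, without pairing by number or an outlying library. That test therefore does not cover these features of the data. The value of 1 read was estimated from the spacing of low values. It was not determined for untreated replicate 1. P-values measure the spread between these libraries. Same-numbered libraries deviated together (correlations over genes of 0.229, 0.240 and 0.201), so the pairing by number rests on the data. It was used only in the replicate block and in the differences within replicate numbers. The main fit had no block, and unless a block is named its SE, intervals and p-values are unpaired. The 8 genes and all lists were chosen with earlier results of these data known. From each list the genes named are up to 4 per direction past the study's thresholds with the lowest p, or the 2 lowest p-values where none passed, and the 3 protein-coding genes with a mean of at least 100 nearest to Nr3c1. The alternatives were pseudocounts of 5 and 0.5, other filters, quantile or recomputed scaling, weights per library, a replicate block and leaving out each library.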

Additional observations from a re-analysis of the deposited data

How the results depend on the processing

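The 8 genes were refitted under 14 alternatives, giving 103 log2 fold changes, of which 97 kept their sign and their side of the study's thresholds. Sgk1 passed those thresholds in 1, without amisulpride replicate 3, which made the count of the 8 genes past them range from 0 to 1 with a library left out. The sign turned for Dusp1 with weights per library (0.018) and without amisulpride replicate 3 (0.15), and for Zfp36 without untreated replicate 3 (-0.41), amisulpride replicate 1 (-0.18) and amisulpride replicate 2 (-0.03). With a library left out Dusp1 ran from -0.73 to 0.15 and Zfp36 from -0.41 to 0.88. Leaving out replicate 3 of either group keeps replicate 3 of the other, which was the lowest there for both genes. The cause was not tested. The adjusted p of the 8 genes was at least 0.0532 in every alternative. The unadjusted limma p of Tsc22d3 was 0.0557 with the replicate block and 0.0540 with quantile normalisation. The block changed no other call among the 8.

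Over all genes, 12 were higher and 24 lower at an adjusted p under 0.05. With a library left out these counts ran from 0 to 50 and from 0 to 70, where the lowest number at an unadjusted p under 0.05 was 911. A pseudocount of 5 gave 23 higher, no filter 25 and quantile normalisation 30. Weights per library gave 93 and 102, and the replicate block 130 and 133. At the study's thresholds 621 were higher and 692 lower without a filter, and 177 and 150 with a mean of at least 50. Leaving out a library gave 309 to 485 higher and 254 to 515 lower.

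Without a filter, in which near-zero genes enter, the steroid metabolism list had 1 higher and 2 lower, the receptor partners 1 higher and the paralogs 1 higher and 1 lower. With a mean of at least 50 the inflammatory list had 6 lower and the immediate early genes 1 higher. Weights per library gave 1 higher and 2 lower paralogs, and the replicate block 1 lower paralog. At an adjusted p under 0.05 the block raised the inflammatory list from 1 to 6 lower and the glucocorticoid-induced list from 0 to 1 in each direction, and left the other lists at 0. With a library left out the inflammatory list ranged from 6 to 10 lower, the glucocorticoid-induced list from 2 to 4 higher and 1 to 2 lower, immediate early genes from 2 to 3 higher and 0 to 1 lower, paralogs from 0 to 1 in either direction and steroid metabolism from 0 to 1 lower.

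Values at or under that of 3 reads lie within what a count of 0 allows by counting error alone. These include Nr3c2 in the treated libraries, Klf9 in amisulpride replicates 2 and 3 and Hsd11b1 in amisulpride replicate 3. The intervals of Zfp36, Klf9 and Hsd11b1 span over 2 log2 units.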
